A study of Saccharomyces cerevisiae BY4743 with 24 samples.

Results

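The mRNAs of the small-subunit processome and of the later 40S assembly factors of Saccharomyces cerevisiae were followed through polysome gradients of heat-shocked and unstressed cells. A list of 52 gene names was matched to the gene column of the deposited table. Exact matches were found for 51 names, out of 5959 mRNA entries in all, and these 51 genes are the members described here. The remaining name, DBP4, is a synonym of HCA4 in the RefSeq gene table, and the values of HCA4 are given apart from the counts.

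The strain was BY4743, a diploid laboratory yeast, with no other allele or agent given for either temperature. All cells grew at 30 °C to mid-log phase in synthetic medium with raffinose and a trace of glucose. The heat-shocked cells were then collected on a filter, put into medium at 42 °C and sampled after 30 min, whereas the 30 °C cells were sampled directly, so heat and the filtration cannot be told apart. Cycloheximide, which stalls ribosomes on mRNA, was present at harvest of both. Lysates were separated on sucrose gradients and RNA of 4 pools per gradient was sequenced without removing rRNA. The library names call pool 1 mono, pool 2 di, pool 3 tri and the last pool 4, from light to heavy. With 3 replicate numbers this gave 3 libraries in each of 4 pools at 42 °C and likewise at 30 °C, 24 libraries in all. Nothing in the labels says that the replicates were separate cultures, so the p-values measure the spread between these samples.

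The small-subunit processome is the large particle that gathers on the nascent pre-rRNA in the nucleolus, guided by base pairing with the U3 snoRNA. The UTP-A, UTP-B and Mpp10 complexes bind the transcript early, helicases and enzymes remodel, cleave and modify it, and a smaller set of late factors accompanies the pre-40S particle to the cytoplasm. In yeast, the genes of ribosome assembly form a coexpressed regulon that is known to be turned down by many stresses.

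Levels are given as mRNA TPM, that is, TPM (a measure of transcript abundance per length) rescaled so that the mRNA entries of a library sum to 1000000. TPM keeps no read depth, so the depth behind each value is unknown and a value of 0 is reported as listed at 0. The summed mRNA was 1423 to 4016 of the 1000000 deposited TPM in the 3 pool 1 libraries at 42 °C, against 21862 to 24652 in pool 1 at 30 °C, and it was at least 12751 in every other library. Replicates of a group correlated across genes with r of 0.75 to 0.76 in pool 1 at 42 °C, the lowest of the 8 groups, and of 0.83 to 0.95 in the others. Ribosomal protein mRNAs took 0.441 to 5.22% of the mRNA at 42 °C, against 41.2 to 66.0% at 30 °C, a change in composition that the rescaling carries into every other gene. HSP104, the heat-induced disaggregase, had 3948 to 10260 mRNA TPM in the 12 libraries at 42 °C, against 20.6 to 100.5 in the 12 at 30 °C.

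Together, the assembly factor mRNAs were scarce at 42 °C in every pool. Their summed level, averaged over the 4 pools of each gradient, was 111 ± 30.6 mRNA TPM at 42 °C and 1349 ± 399 at 30 °C (SD, n = 3 gradients each), 12.2-fold lower in heat. By pool, the 3 libraries at 42 °C summed to 219, 83.7 and 186 mRNA TPM in pool 1, against 766, 1119 and 1327 at 30 °C. The pool 2 sums were 118, 82.7 and 138 at 42 °C, against 667, 918 and 888 at 30 °C. Each 42 °C library was thus below each 30 °C library of its pool. In pool 3 the sums were 85.2, 60.8 and 52.6 at 42 °C, against 781, 1378 and 1225 at 30 °C. Pool 4 had 108, 75.4 and 119 at 42 °C, against 1349, 2731 and 3041 at 30 °C, the widest gap of the 4 pools on this scale. When the sum was taken relative to the mRNA other than ribosomal protein mRNA it was 26.9-fold lower at 42 °C, and relative to 25S rRNA it was 24.0-fold lower. In bulk pools it cannot be told apart whether fewer cells held these mRNAs or each cell held less.

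**Figure D1:**
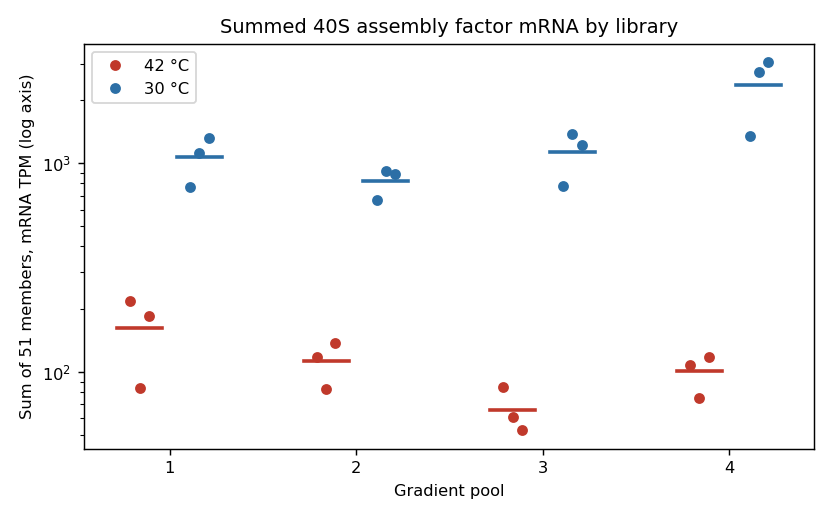
Summed mRNA TPM of the 51 members (log axis) in each library of gradient pools 1 to 4, with 42 °C left of 30 °C in each pool, points for the 3 replicates and bars for their means. Every 42 °C library, at 52.6 to 219, lies below every 30 °C library, at 667 to 3041.

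At 42 °C 338 of the 612 member values (51 genes in 12 libraries) were listed at 0, against 2 of 612 at 30 °C. In 34 members at least 6 of the 12 libraries at 42 °C were at 0, and UTP8 was at 0 in all of them. UTP22, RRP7 and PNO1 were the members never listed at 0 at 42 °C. The 2 zeros at 30 °C belonged to IMP3 and DHR2. Zeros were also more frequent among mRNAs of any kind, with 843 to 1415 in each 42 °C library and 673 to 882 in each 30 °C library.

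Heat was tested gene by gene on the mean log2(mRNA TPM + 1) of the 4 pools of each gradient, with limma and Benjamini-Hochberg adjustment at 5% over all genes. Of the 51 members, 50 fell at 42 °C, 0 rose and RRP7 did not pass, where 27.6% of the 5777 mRNAs with any signal fell and 26.4% rose. The member median was -3.10 log2, beside 0.01 over all these mRNAs. The fit with a filter of 10 mRNA TPM in at least 3 libraries kept 40 members, of which 39 fell, against 32.4% of 3949 mRNAs. The 11 members it dropped were UTP4, UTP8, UTP10, UTP20, UTP21, UTP22, NAN1, NOC4, KRE33, DHR2 and ECM16. Only 6 members would have passed it on their 42 °C libraries alone, so most of those kept entered through their 30 °C levels and their count says little. At this threshold ECM16 lay just outside, where the value that had to reach 10 was 9.90, and TSR1 just inside, where it was 12.7. Because of the pseudocount, the log2 values understate the change of genes with low levels. Below, the fold changes and adjusted p-values are those of the filtered fit for members that it kept and of the unfiltered fit for the others. Values named with a pool are its 3 replicates in order of their number, and 3 values without a pool are the lowest, the median and the highest of the 12 libraries at that temperature.

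**Figure D2:**
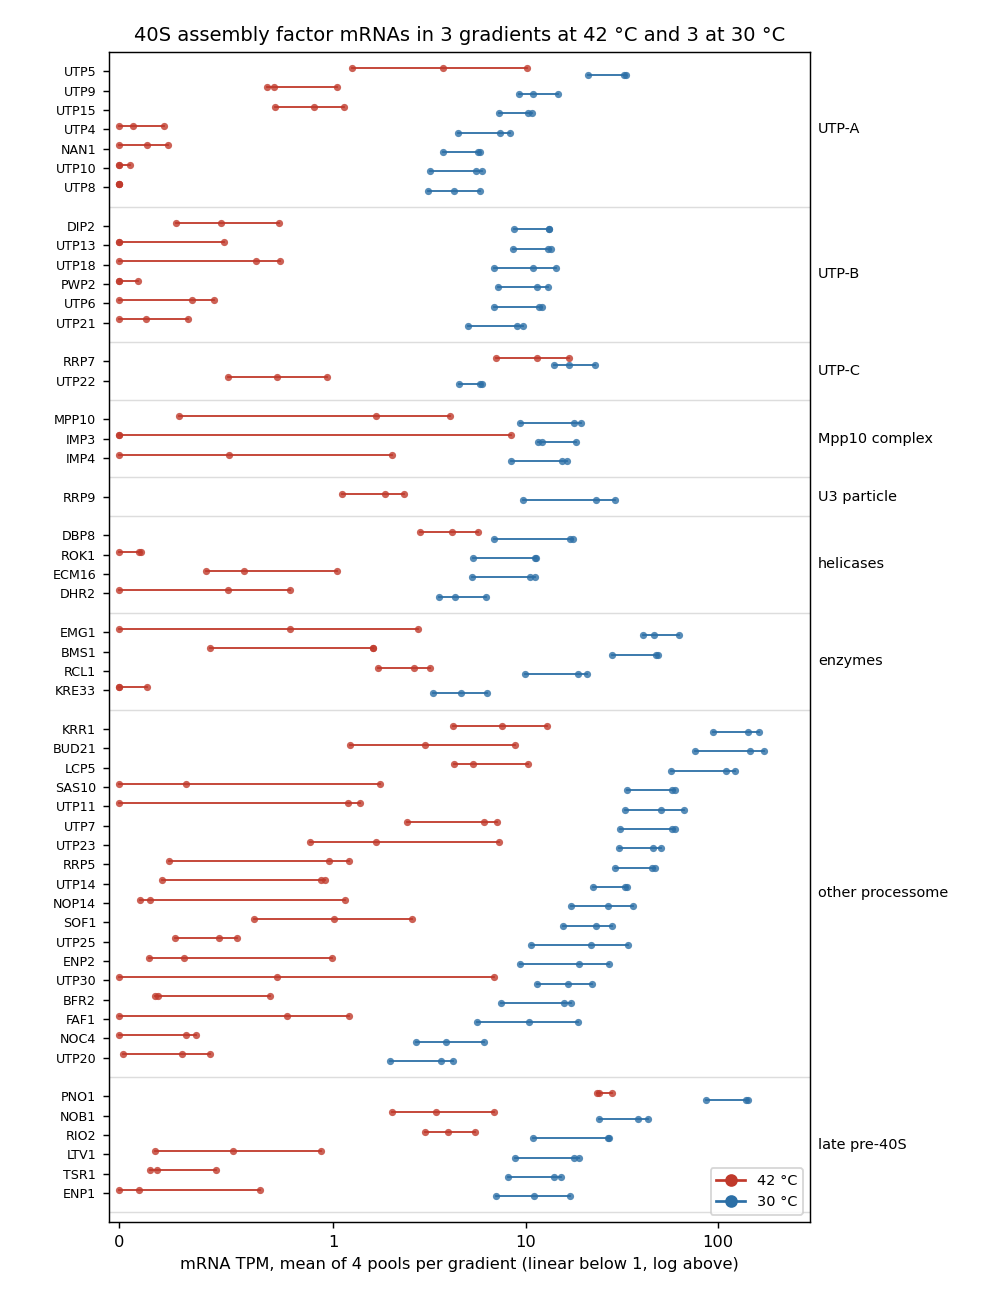
Mean mRNA TPM over the 4 pools of each gradient for the 51 members, by role and by level at 30 °C, with 3 gradients at 42 °C (red, upper line of each pair) and 3 at 30 °C (blue), on an axis linear below 1 and logarithmic above it. The red points lie left of the blue points in every member except RRP7, where they overlap.

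The UTP-A complex, which binds the 5′ end of the pre-rRNA, had 7 members, and all 7 fell, with a median of -2.47 log2. Their summed level was 7.0 ± 4.64 mRNA TPM at 42 °C and 70.9 ± 16.5 at 30 °C (SD, n = 3 gradients each). UTP5, the most abundant of them, ran from 0 through a median of 2.18 to 32.5 mRNA TPM over the 12 libraries at 42 °C, against 11.4, 26.7 and 59.8 at 30 °C. Its 32.5 came from pool 1 of replicate 1, the library with the least mRNA, and no other 42 °C library exceeded 6.71. The change of UTP5 was -3.10 ± 0.46 log2 (SE, limma adjusted p = 0.00084). UTP8, which also takes part in nuclear tRNA export, held no value above 0 in the heat-shocked libraries, against 1.13 to 9.91 mRNA TPM at 30 °C. For UTP10, a very large helical-repeat protein, 11 of 12 libraries at 42 °C were at 0 and the other held 0.194, against 2.19 to 10.9 mRNA TPM at 30 °C. The genes lie on chromosome IV from 1267471 to 1269402 (UTP5), VII from 747950 to 750091 (UTP8) and X from 212000 to 217309 (UTP10) in build R64.

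All 6 members of UTP-B, the complex that joins UTP-A and U3 on the transcript, fell, with a median of -3.08 log2. Of the complexes with more than 1 member, UTP-B had the lowest summed level at 42 °C, 1.56 ± 0.402 mRNA TPM, against 62.8 ± 17.1 at 30 °C. PWP2, a WD-repeat protein at the core of the complex, was above 0 at 42 °C in 1 library, at 0.348, against a range of 3.16 to 30.7 and a median of 7.86 mRNA TPM at 30 °C. DIP2, which with UTP13 had the highest level of the complex at 30 °C, reached at most 2.64 mRNA TPM at 42 °C, with 6 libraries at 0, against 5.38 to 26.8 at 30 °C. UTP21, the least abundant, was at 0 in 9 libraries at 42 °C and reached 0.832, against 3.57 to 18.2 at 30 °C. For PWP2, DIP2 and UTP21, each 42 °C library stayed below the lowest 30 °C library. Their changes were -3.24 ± 0.32 (adjusted p = 0.00013), -3.04 ± 0.27 (8.05e-05) and -2.84 ± 0.25 log2 (0.00011; SE, limma).

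The UTP-C complex, made of UTP22, RRP7, RRP36 and the protein kinase CK2, held RRP7, the member with the least change. RRP7, on chromosome III from 64675 to 65568, had 32.6, 2.04 and 15.3 mRNA TPM in the 3 pool 1 libraries at 42 °C, against 11.03, 24.5 and 11.1 at 30 °C. In pool 4 it had 3.69, 7.06 and 7.72 at 42 °C, against 23.1, 32.9 and 24.5 at 30 °C. The groups overlapped in pool 1 and did not in pool 4, where its change was -1.99 ± 0.59 log2 (SE, limma adjusted p = 0.0077), and over all libraries RRP7 ranged from 2.04 to 32.6 mRNA TPM at 42 °C and from 9.69 to 32.9 at 30 °C. Its heat change over the gradient means was -0.70 ± 0.32 log2 (SE, 95% interval -1.45 to 0.05, limma adjusted p = 0.092). Scaled to 25S rRNA, the change of RRP7 was -1.61 with a limma adjusted p of 0.0016. Scaled to the mRNA other than ribosomal protein mRNA it was -1.82 (0.0012), past the threshold on both. On the 25S rRNA scale, however, the median of all 3949 mRNAs was itself -0.95 log2, beside -0.02 on the mRNA scale. The scale without ribosomal protein mRNA also carries a change of composition into every gene. Without the pool 1 libraries at 42 °C the change of RRP7 was -0.80, with a limma adjusted p of 0.015. UTP22, its partner, fell by 1.82 log2 (SE 0.20, adjusted p = 0.00028), with 0.238 to 1.75 mRNA TPM at 42 °C against 2.78 to 10.9 at 30 °C.

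The 3 members of the Mpp10 complex, which helps U3 to pair with the pre-rRNA, all fell, with a median of -3.06 log2. MPP10 itself had up to 10.2 mRNA TPM and a median of 1.38 at 42 °C, against 5.82 to 39.6 and a median of 13.2 at 30 °C, and changed by -2.65 ± 0.48 log2 (SE, adjusted p = 0.0024). IMP4, which binds the U3 duplex, was listed at 0 in 8 libraries at 42 °C and reached 4.82, against 6.58 to 33.2 at 30 °C, a change of -3.16 ± 0.39 log2 (adjusted p = 0.00035). RRP9, the protein that is specific to the U3 particle, ran from 0 through 1.17 to 6.55 mRNA TPM at 42 °C, against 7.66, 14.1 and 62.9 at 30 °C. None of its 42 °C libraries reached the lowest 30 °C library, and its change was -2.87 ± 0.38 log2 (adjusted p = 0.00048).

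Among the RNA helicases, all 4 members fell, with a median of -2.24 log2. DBP8, a DEAD-box helicase, had the second smallest change of all members, -1.59 ± 0.41 log2 (SE, adjusted p = 0.011). Its values ran from 0 through 4.29 to 8.76 mRNA TPM at 42 °C, against 3.90, 12.1 and 33.5 at 30 °C, and the temperatures overlapped. DHR2, a DEAH-box helicase, had 10 zeros at 42 °C and 1 at 30 °C, with a highest value of 3.19 at 42 °C and 10.7 at 30 °C. HCA4, the entry for Dbp4, had 0 to 2.71 mRNA TPM at 42 °C, against 4.13 to 26.3 at 30 °C, and changed by -2.67 ± 0.32 log2 (adjusted p = 0.00044).

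The enzymes of the processome, the GTPase BMS1, the methyltransferase EMG1, the acetyltransferase KRE33 and the cyclase-like RCL1, all fell, with a median of -3.32 log2. EMG1, which methylates a modified base of the small-subunit rRNA, was listed at 0 in 10 libraries at 42 °C and reached 11.1 mRNA TPM, against 28.3 to 106 at 30 °C. Its change of -5.12 ± 0.30 log2 (adjusted p = 1.76e-05) was the second largest of the members on this scale. KRE33, which acetylates rRNA and tRNA, was above 0 at 42 °C in 1 library, at 0.511 mRNA TPM, against 1.66 to 14.3 at 30 °C. RCL1, needed for early cleavages of the pre-rRNA, kept a median of 2.53 mRNA TPM at 42 °C, against 14.97 at 30 °C, and changed by -2.34 ± 0.34 log2 (adjusted p = 0.00075).

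The other 18 processome proteins all fell, with a median of -3.91 log2. KRR1, a KH-domain protein encoded on chromosome III from 22429 to 23379, was the most abundant member at 30 °C. In pool 1 it had 11.2, 0 and 15.5 mRNA TPM at 42 °C, against 36.5, 133 and 97.7 at 30 °C. Its pool 4 values were 5.63, 0 and 18.8 at 42 °C, against 180.2, 280.4 and 265 at 30 °C. No 42 °C library of KRR1 overlapped a 30 °C library, and the change was -4.17 ± 0.54 log2 (SE, adjusted p = 0.00046). BUD21, second in abundance at 30 °C, showed the largest change of all members on the log2(mRNA TPM + 1) scale, -5.25 ± 0.54 log2 (adjusted p = 0.00015), with 0 to 12.6 mRNA TPM at 42 °C and 59.2 to 312.7 at 30 °C. By the fold of mean levels it was 30.5-fold lower at 42 °C, less than, for example, SAS10 at 72.7-fold. SAS10 and UTP11, both structural proteins of the particle, changed by -4.98 ± 0.39 (adjusted p = 5.04e-05) and -4.95 ± 0.31 log2 (2.25e-05). SAS10 was listed at 0 in 8 and UTP11 in 10 of the 12 libraries at 42 °C. RRP5, which works in assembly of both ribosomal subunits, ran from 0 through 0.778 to 1.77 mRNA TPM at 42 °C, against 20.0, 31.6 and 99.98 at 30 °C, and changed by -4.38 ± 0.31 log2 (adjusted p = 3.41e-05). UTP20, the longest member at 7482 coding nucleotides, had the lowest level at 30 °C and a change of -1.62 ± 0.24 log2 (adjusted p = 0.0012). Its values were 0 to 1.05 mRNA TPM at 42 °C and 0.834 to 8.93 at 30 °C, a range in which the pseudocount weighs most.

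All 6 late pre-40S factors fell, with a median of -3.13 log2. PNO1, a KH-domain partner of the nuclease Nob1 encoded on chromosome XV from 605347 to 606171, was the most abundant member at 42 °C. Its pool 1 libraries had 22.5, 44.7 and 30.9 mRNA TPM at 42 °C, against 69.0, 82.1 and 128 at 30 °C. In pool 4 it had 33.8, 24.2 and 43.8 at 42 °C, against 131, 239.8 and 207 at 30 °C. At 42 °C, each of its 12 values was equal to, or a whole multiple of, a value listed for another gene of that library. In pool 1 of replicates 1 and 3 and in pool 4 of replicate 1, many mRNAs of the library shared that value. Its rank at 42 °C thus rests on coarse values. The highest of the 12 libraries at 42 °C, at 44.7, lay below the lowest at 30 °C, at 65.3, and the change was -2.41 ± 0.25 log2 (SE, adjusted p = 0.00015). NOB1, the nuclease that makes the mature end of 18S rRNA, ran from 0 through 2.84 to 17.4 mRNA TPM at 42 °C, against 10.6, 22.9 and 100.5 at 30 °C, with overlap in 1 of the 4 pools. Its change was -3.06 ± 0.46 log2 (adjusted p = 0.00095). The atypical kinase RIO2 changed by -2.11 ± 0.39 log2 (adjusted p = 0.0025), and ENP1, which travels with the particle from the nucleolus outward, by -3.20 ± 0.37 (0.00025).

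The order of levels was steep at both temperatures. At 30 °C KRR1, BUD21, PNO1, LCP5 and SAS10 made up 39.6% of the summed level, and the median member stood at 13.9 mRNA TPM. At 42 °C PNO1, RRP7, KRR1, LCP5 and UTP7 made up 51.4%, PNO1 alone 22.7%, and the median member stood at 0.703. Across the 51 members, coding length and log level at 30 °C were correlated with r of -0.51, and over all tested mRNAs with r of -0.38. The level at 30 °C and the heat change were correlated with r of -0.69 across members. The 30 °C level is itself subtracted in the heat change, so a negative r was favoured in advance and is not a separate result. The points also share their libraries and the same pseudocount, which limits how far a gene of low level can fall.

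Heat was then tested within each pool, in a fit of all 24 libraries with 1 mean per group. In pool 1, 45 of 51 members fell, where 13.7% of all mRNAs fell and 34.1% rose. Pool 2 had 44 members that fell (14.9% of mRNAs fell, 26.2% rose), pool 3 had 48 (21.8% and 15.5%), and pool 4 had all 51 (39.2% and 10.5%). In none of the 4 pools did a member rise past the threshold. On the spike-in scale, 18, 17 and 26 of the 40 members kept by the filter fell in pools 1, 2 and 4 (10.3%, 8.36% and 10.8% of mRNAs), against 34, 35 and 40 on the mRNA scale. The pool 3 count on the spike-in scale is not given. The member medians were -2.73, -2.51, -3.06 and -3.92 log2 from pool 1 to pool 4, beside 0.55, 0.31, -0.12 and -0.74 over all mRNAs. Relative to all mRNAs the members thus lay 3.27, 2.82, 2.94 and 3.17 lower, and the deeper raw value of pool 4 went with a lower median of all genes. In all 4 pools 41 of the 51 members fell, against 10.6% of all mRNAs. RRP7 and DBP8 failed the test in pools 1, 2 and 3, and RIO2 in pools 1 and 2. DHR2, FAF1, NOB1 and UTP7 failed in pool 2. IMP3 failed in pools 1 and 3. UTP5 and UTP30 failed in pool 1. In that pool, replicate 1 at 42 °C held 32.5 mRNA TPM of UTP5, 18.1 of UTP30 and 33.7 of IMP3. In the filtered fit of all libraries, 34 of 40 members fell in pool 1, where 17.1% of mRNAs fell. Without replicate 1 at 42 °C 35 of 40 fell, and the share of mRNAs is not given for that fit.

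**Figure D3:**
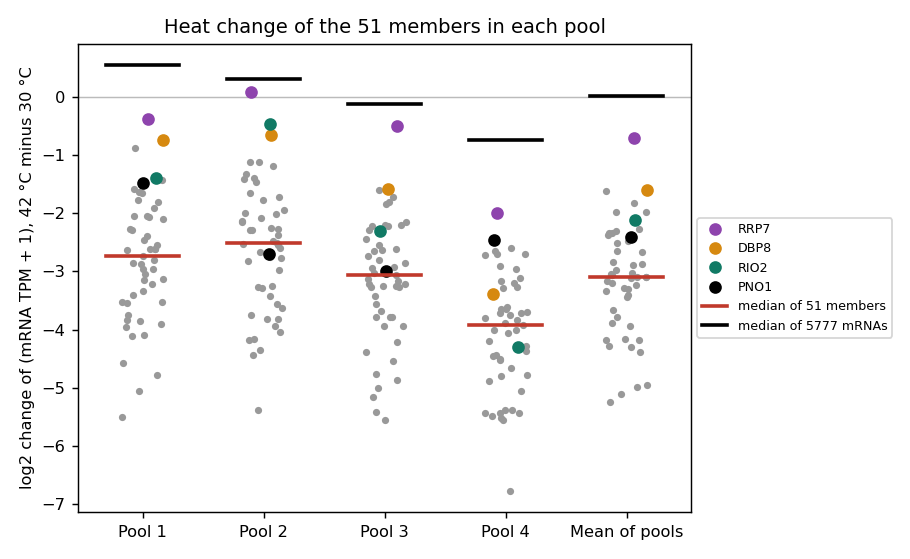
Heat change, 42 °C minus 30 °C, as log2(mRNA TPM + 1) without the filter on low values, for the 51 members in each pool and over the mean of the pools, with red bars for the member median and black bars for the median of 5777 mRNAs. The member median lies between -2.51 and -3.92 in the pools, and RRP7 is the highest point in each column.

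The libraries were also set side by side without a model. Every 42 °C library lay below every 30 °C library for 42 of 51 members among the pool 1 libraries, and for 46, 49 and 51 among those of pools 2, 3 and 4. The shares of all 5777 mRNAs with such a gap were 14.3%, 19.3%, 31.5% and 42.6%. For 36 members all 12 libraries at 42 °C lay below all 12 at 30 °C, which held for 9.17% of mRNAs. A gap in each of the 4 pools was found for 39 members and for 11.4% of mRNAs.

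The position of the members in the gradient was compared as pool 4 against pool 1, the heavy against the light end. Except where a block is named, the fit took the libraries as separate, although pools of a gradient are linked. At 30 °C 50 of the 51 members, taken without the filter, had their highest mean in pool 4 and 41 their lowest in pool 2. Of 3921 mRNAs kept by the filter, 83.3% were highest in pool 4 and 52.4% lowest in pool 2. With ribosomal protein mRNA left out of the scale, 45 members were highest in pool 4, against 71.1% of these mRNAs. On that scale 37 members were lowest in pool 2, against 50.9%. Without a filter, 13 of 51 members were higher in pool 4 past the 5% threshold, where 37.0% of mRNAs were. With the filter 7 of 40 were, namely DIP2, ENP1, LTV1, PWP2, RIO2, RRP5 and TSR1, where 47.1% of the 3949 mRNAs were higher. DIP2 and PWP2 passed the filter only through their pool 4 libraries at 30 °C, the high group of this comparison, as did UTP15, BFR2 and FAF1, so the filtered count says little. The filtered member median was 1.07 log2, beside 1.18 over all mRNAs, so the shift of the members was close to that of the whole table. RIO2 had 25.9, 57.0 and 65.2 mRNA TPM in pool 4 at 30 °C, against 2.55, 13.8 and 11.7 in pool 1. That difference was 2.42 ± 0.75 log2 (SE, adjusted p = 0.013). The pools of RIO2 did not overlap, nor did those of PWP2, which had 16.1, 21.5 and 30.7 in pool 4 and 3.16, 8.62 and 8.44 in pool 1 (1.67 ± 0.37 log2, adjusted p = 0.0013). At 30 °C every pool 4 library lay above every pool 1 library for 22 of 51 members and for 62.1% of the 3949 mRNAs. With each library scaled to its median gene, 0 members were higher (4.53% of mRNAs were), UTP6 was lower (3.57%), and the member median was -0.06. The filtered count of 7 on the mRNA scale also rested on single replicates, being 1 without replicate 2 or without replicate 3 at 30 °C, 4 without replicate 1 at 30 °C, 11 without replicate 2 at 42 °C and 12 without replicate 3 at 42 °C. The share of all mRNAs is not given for these fits, so their counts are not a result about the members alone. With the gradient as a block the count was 12, against 53.6% of mRNAs.

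At 42 °C 2 members, UTP5 and UTP9, were lower in pool 4 than in pool 1, of 51 without a filter (10.5% of mRNAs) and of 40 with it (11.4%), and 0 were higher, against 1.7%. UTP9, a UTP-A protein, was listed at 0 in the 3 pool 4 libraries, against 2.77, 2.76 and 2.89 mRNA TPM in pool 1, a difference of -1.93 ± 0.37 log2 (SE, adjusted p = 0.0026). UTP5 had 0, 3.15 and 0 in pool 4, against 32.5, 4.17 and 4.98 in pool 1, a difference of -2.65 ± 0.76 (adjusted p = 0.028). Without replicate 1 at 42 °C, the difference of UTP5 was -1.45 with an adjusted p of 0.26. The number of members called was 1 without replicate 1 at 42 °C, 6 without replicate 2 at 42 °C (5 lower, 1 higher) and 1 without replicate 2 or 3 at 30 °C. For these fits too the share of all mRNAs is not given, so the counts may not be particular to the members. Scaled to the median gene, UTP9 was lower (5.04% of mRNAs were) and RCL1 higher (11.5%), and with the gradient as a block 4 members were lower, against 16.4%.

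The heat change of the pool difference was tested as an interaction. It was below 0 past the threshold for 11 of 51 members without a filter, where 40.2% of mRNAs were. With the filter it was so for 9 of 40, where 48.2% of mRNAs were, and DIP2 and PWP2 among these 9 had passed the filter only through pool 4 at 30 °C. PWP2 was listed at 0 in pools 1 and 4 at 42 °C, so its interaction of -1.67 is its pool difference at 30 °C with the sign turned. The filtered fit gave a member median of -1.25 log2 beside -1.56 over all mRNAs. The lowest were UTP5 at -3.45 ± 1.08 (adjusted p = 0.016), SOF1, a WD-repeat protein, at -3.10 ± 0.84 (0.0077) and RIO2 at -2.90 ± 1.05 log2 (0.031; SE, limma). SOF1 was listed at 0 in the 3 pool 4 libraries at 42 °C and had 3.02, 0 and 7.81 mRNA TPM in pool 1, while at 30 °C it had 27.5, 45.9 and 53.0 in pool 4 and 6.84, 18.4 and 26.0 in pool 1. With each library scaled to its median gene 0 of 40 members passed in limma, with 3 at an unadjusted p under 0.05, and scaled to 25S rRNA 0 passed, with 2 at that level. On these scales the interaction was also below 0 past the threshold in few of all mRNAs, 0.152% and 0.0506%. The filtered count on the mRNA scale was 5 without replicate 3 at 42 °C, and 3 and 2 without replicate 2 and replicate 3 at 30 °C. Without the share of all mRNAs in these fits, which is not given, the counts are not a result about the members alone.

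**Figure D4:**
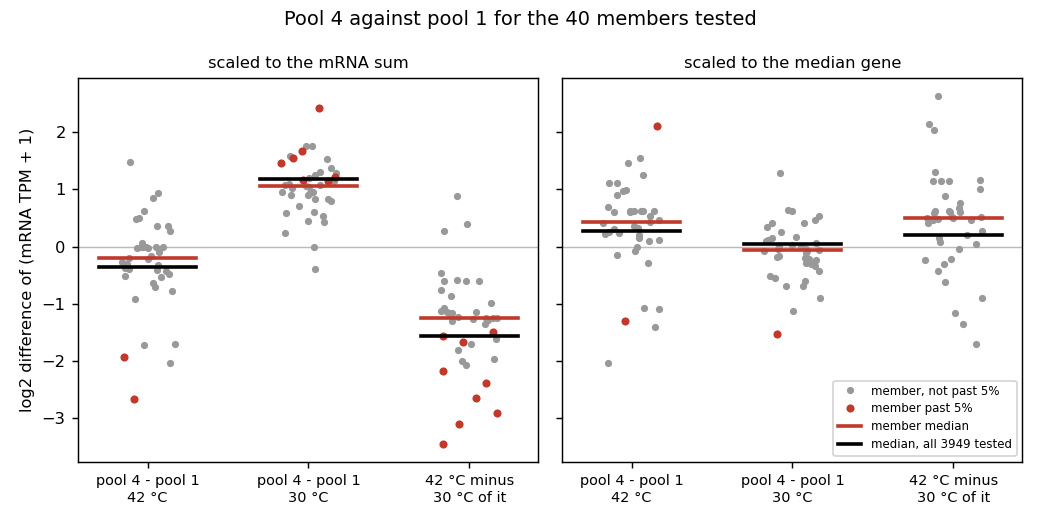
Difference between pool 4 and pool 1 at 42 °C and at 30 °C, and the heat change of that difference, as log2 of (mRNA TPM + 1) for the 40 members kept by the filter, scaled to the mRNA sum (left) or to the median gene (right), with red points past 5%. On the left the member medians are -0.20, 1.07 and -1.25, beside -0.36, 1.18 and -1.56 for all mRNAs, and on the right all lie within 0.51 of 0.

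Neighbouring parts of the ribosome assembly pathway were read from lists with the same heat test. Of 33 other 40S factors, 26 fell in the unfiltered fit and 0 rose, with a median of -2.36 log2. The 7 that did not pass were CKA1, CKA2, CKB1 and CKB2, which are the subunits of CK2, together with the kinases HRR25 and RIO1 and the rRNA-modifying enzyme TSR3. CKB2 averaged 65.8 ± 17.1 mRNA TPM at 42 °C and 55.2 ± 5.35 at 30 °C (SD, n = 3 gradients each), and CKA2 averaged 34.2 ± 11.5 at 42 °C and 46.6 ± 10.7 at 30 °C. Scaled to 25S rRNA, 29 of the 31 factors kept by the filter fell, and CKB2 and HRR25 did not pass. On that scale the median of all 3949 mRNAs was itself -0.95 log2, and the share of them that fell is not given. Counts on it thus carry a shift of the whole table. RRP36, the partner of CK2 and RRP7 in UTP-C, changed by -5.48 log2. Within this complex the listed genes thus ran from a deep change to changes that did not pass the test. All 4 core proteins of box C/D snoRNPs, the particle class of U3, fell, with a median of -5.13 log2. All 7 RNA polymerase I subunits tested fell, with a median of -3.70, as did 68 of 70 factors of the 60S subunit, with a median of -3.50. The exceptions in the 60S list were SDO1, a factor of the last cytoplasmic steps, and the helicase SPB4. On the 25S rRNA scale, with its lower median of all mRNAs, all 59 that the filter kept fell. All 56 small-subunit ribosomal protein genes fell, with a median of -6.60 log2. Of 5 regulators of the regulon, STB3, a repressor that binds promoters of these genes, rose by 1.52 ± 0.21 log2 (SE, adjusted p = 0.00055), and SFP1, SCH9, DOT6 and TOD6 did not pass. On the 25S rRNA scale, where the median of all mRNAs was -0.95, STB3 was at 0.58 log2 and did not pass.

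**Figure D5:**
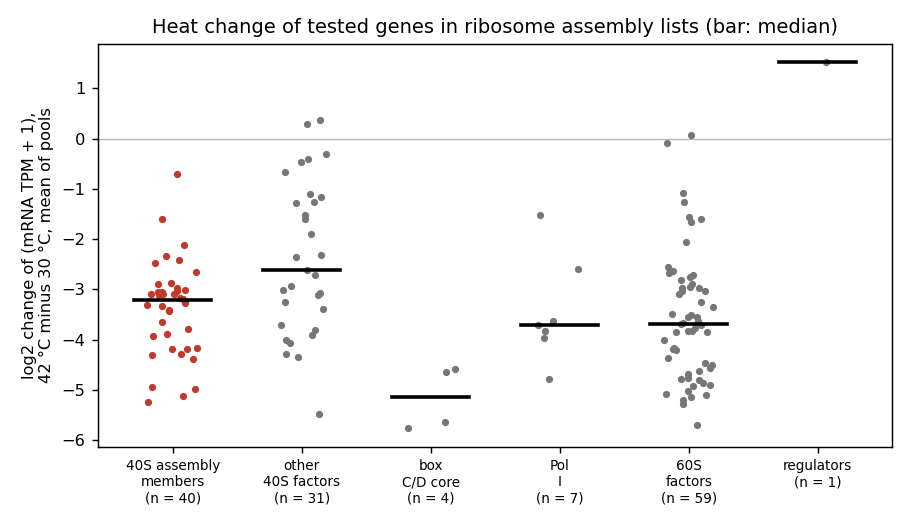
Heat change over the gradient means, 42 °C minus 30 °C, as log2(mRNA TPM + 1), for the tested genes of 6 lists, with a bar at each median. The 40 members kept by the filter have a median of -3.22, and the highest points of the other 40S factors and of the 60S factors lie at 0.36 and 0.07.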

How the data were processed

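Each of the 24 libraries is 1 gradient pool. The authors deposited TPM per transcript. Per the submitters' processing notes, Trim Galore 0.6.5, Salmon 1.9.0 and build R64 were used, without stated settings. The table has 6087 entries, and 3 emptied lines were skipped. Coordinates come from the RefSeq gene table of the same build.

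In each library the mRNA entries were scaled to add up to 1000000. For genes with at least 10 of this unit in at least 3 libraries, log2(value + 1) was fitted with limma 3.58.1 in R 4.3.3 (mean-variance trend, 2-sided, Benjamini-Hochberg at 5%), and the unfiltered table was fitted likewise. The scripts were tested on simulated data. Tables were made with Python 3.11.15 and pandas 2.3.3.

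Replicate numbers come from the titles. For the gradient means, samples of the same number deviated together (r of 0.14 to 0.19), which pairs them. Within pools r was 0.03 to 0.10, above the -0.11 to 0.02 of samples with different numbers, a weaker link. Pools from the same gradient are linked by design. The main fits took neither link into account, and fits with a block are given as alternatives. Alternatives changed the pseudocount, filter, scale, block, trend and replicates.

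The members, lists and tests were chosen with earlier results of these data known. Genes are named when they are the most or least abundant of a role group at 30 °C, or are RRP9, UTP10, UTP20, RRP5, PNO1 or NOB1. Of the members kept by the filter, those with the 5 largest or smallest heat changes are named. So are those not past the threshold or among the 3 largest pool differences. The other members named were singled out after their values were seen. Promoter and protein sequences were not used here.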

Additional observations from a re-analysis of the deposited data

Results flagged for a closer look

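The heat change differed between pool 4 and pool 1 for 9 members of the 40 kept by the filter, in the interaction test at 5%, and for 11 of 51 without the filter. DIP2 and PWP2 had passed the filter only through their pool 4 libraries at 30 °C. The heat change in pool 4 minus that in pool 1 was -2.65 log2 for DBP8, -1.55 for DIP2, -2.17 for LTV1, -1.67 for PWP2 and -2.90 for RIO2. It was -1.48 for RRP5, -3.10 for SOF1, -3.45 for UTP5 and -2.37 for UTP9. The same sign was called for 48.2% of all mRNAs, and with each library scaled to its median gene 0 of these 9 passed.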

How the results depend on the processing

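Members lower at 42 °C over the gradient means numbered 39 of 40, and 39 to 40 under every alternative that kept these 40 genes except the spike-in scale, with 30. Every leave-one-out fit gave 39. In the main fit 32.4% of all 3949 mRNAs were lower, and the share is not given for each alternative. With a filter of 50 mRNA TPM 10 members were left, of which 10 fell over the gradient means and in pools 1, 3 and 4, and 9 in pool 2. The spike-in scale gave 18, 17 and 26 in pools 1, 2 and 4 (10.3%, 8.36% and 10.8% of mRNAs), and its pool 3 count is not given. On that scale replicate 1 differs from the others, with 22.7 to 94.3 TPM of spike-ins, against 246 to 511 in replicates 2 and 3. With the replicate block added, an alternative chosen after seeing the data, it gave 40 over the gradient means. Leave-one-out counts ran from 31 to 35, 30 to 34 and 35 to 38 in pools 1 to 3, and were 40 in pool 4. The member median over the gradient means depended on the pseudocount, being -5.61 log2 with 0.1 and -1.69 with 5.

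The pool comparisons depended most on the settings. In the main fit 47.1% of all 3949 mRNAs were higher in pool 4 at 30 °C and 11.4% lower at 42 °C. The interaction was below 0 past the threshold for 48.2%. The share of all mRNAs is not given here for the settings below, so their counts are not a result about the members alone. At 30 °C the 7 members higher in pool 4 became 1 with a pseudocount of 0.1, 24 with 5, 13 without a filter, 1 with a filter of 50, 30 with TPM as deposited, 2 without ribosomal proteins in the scale, 3 on 25S rRNA, 0 on spike-ins (3 with the block) and 11 with the compared libraries alone. Median scaling and quantile normalization each left 0 higher and 1 lower. At 42 °C the 2 lower members became 4 calls (3 lower, 1 higher) with a pseudocount of 0.1, 1 lower with 5, 0 with the filter of 50, 1 lower with quantile normalization or with the compared libraries alone, 1 higher with TPM as deposited, 0 on spike-ins and 4 higher with the block on them. Still 2 in number, they were 2 higher on 25S rRNA and 1 each way with median scaling. The 9 interactions became 4 and 14 under the pseudocounts, 0 with the filter of 50, median scaling, quantile normalization, 25S rRNA or spike-ins, with or without the block, 1 without ribosomal proteins and 3 with the compared libraries alone. Leave-one-out counts ran from 1 to 12, 1 to 6 and 2 to 13.

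With the replicate block, 39 members were lower over the gradient means. In the comparisons of pool 4 with pool 1, 12 were higher at 30 °C (53.6% of mRNAs) and 4 lower at 42 °C (16.4%). The interaction was below 0 for 11. Both other alternatives chosen after seeing the data were TPM as deposited with a pseudocount scaled to it, which gave 40 lower over the gradient means, 6 higher in pool 4 at 42 °C and 2 interactions, and the omission of the 42 °C pool 1 libraries, which gave 40 over the gradient means and 11 at 30 °C. The share of all mRNAs is not given for that interaction count or for these alternatives. The cause of these differences was not tested. Depth is unknown, and 3 gradients a temperature limit the precision.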

Other observations

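Some values repeat exactly within a library, at both temperatures. In pool 1 of replicate 1 at 30 °C, KRR1, CKB2 and RRP36 all held 36.5 mRNA TPM. LCP5 and KRR1 held the same value in 4 of the 12 libraries at 42 °C, namely 11.2 and 15.5 mRNA TPM in pool 1 of replicates 1 and 3, and 5.63 and 18.8 in pool 4 of the same replicates. These values were shared by 59, 61, 60 and 39 mRNAs of their libraries. The coding lengths of LCP5 and KRR1 differ, at 1074 and 951 nucleotides. How such values arose was not tested. They bear on the order of the most abundant members and on the correlation of level with length.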
